A study of Homo sapiens with 8 samples.

Results

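The 37 genes of the human mitochondrial genome were taken from the deposited count table as all rows whose gene name starts with MT-, out of 58735 genes in the table. They comprise 13 protein-coding genes, 2 rRNA genes and 22 tRNA genes. The RNA came from 8 cultures of the established cell line SV-HUC1, human urothelial cells immortalised with SV40. The 4 control cultures were untreated, and the 4 treated cultures were exposed for 24 h to 20 mU per ml of glucose oxidase, which oxidises glucose and releases hydrogen peroxide. All 8 were grown in the same serum-containing medium, no group received peroxide alone or inactive enzyme, and the results describe a single immortalised line. Libraries of each group carry replicate numbers 1 to 4. Control n and treated n are called pair n here. The labels call the replicates biological and the design calls the experiments independent, but neither states whether equal numbers were handled together.

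The mitochondrial genome is a small circle of DNA of which both strands are transcribed into long RNAs that span many genes. Enzymes cut the tRNAs out of these precursors, which also frees the rRNAs and mRNAs that lie between them. The protein-coding genes encode core subunits of respiratory complexes I, III and IV and of the ATP synthase, the rRNAs build the mitochondrial ribosome, and the tRNAs serve its translation. Nuclear genes encode the polymerase, the nucleases and all other factors of this system. On the reference (GRCh38) 12 protein-coding genes, both rRNAs and 14 tRNAs lie on the plus strand, and MT-ND6 and 8 tRNAs on the minus strand. Coordinates and strand of all 37 equalled those of GENCODE release 29.

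The following 5 sequences, from the transcripts of GENCODE release 29 (GRCh38), belong to genes described in the results below. No count or test used the sequences themselves. MT-TC (tRNA for cysteine, chromosome MT, 5761 to 5826, minus strand) and MT-TN (tRNA for asparagine, 5657 to 5729, minus strand) lie next to each other, with 31 bases between them, and capitals mark their anticodons.
MT-TC: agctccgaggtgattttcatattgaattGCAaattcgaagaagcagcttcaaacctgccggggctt
MT-TN: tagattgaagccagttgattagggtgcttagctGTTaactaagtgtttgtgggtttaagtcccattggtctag
MT-TR (tRNA for arginine, 10405 to 10469, plus strand), again with its anticodon in capitals, ends at the base before MT-ND4L starts.
MT-TR: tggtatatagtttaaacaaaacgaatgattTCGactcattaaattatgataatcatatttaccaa
MT-ND4L (10470 to 10766, plus strand) encodes a small membrane subunit of complex I. Its last 7 bases, in capitals, are also the first bases of MT-ND4, which shares its mRNA.
MT-ND4L: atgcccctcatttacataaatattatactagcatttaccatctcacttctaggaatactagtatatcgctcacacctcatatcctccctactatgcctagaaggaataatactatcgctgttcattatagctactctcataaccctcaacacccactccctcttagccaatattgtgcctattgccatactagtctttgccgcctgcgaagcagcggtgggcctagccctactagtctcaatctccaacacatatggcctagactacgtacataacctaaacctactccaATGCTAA
MT-ATP8 (8366 to 8572, plus strand) encodes a small subunit of the ATP synthase, and 46 of its 207 bases (22.2%), in capitals, also belong to MT-ATP6 on the same mRNA.
MT-ATP8: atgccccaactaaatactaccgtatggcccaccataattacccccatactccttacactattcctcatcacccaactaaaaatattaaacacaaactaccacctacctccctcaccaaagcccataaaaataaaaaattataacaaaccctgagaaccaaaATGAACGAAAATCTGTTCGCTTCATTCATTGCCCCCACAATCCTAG

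Total counts per library were between 21653952 and 23543702 for controls and between 21437267 and 27183692 for treated cultures. Of 12 urothelial and epithelial markers 9 were at 10 CPM (counts scaled to the TMM-adjusted library total) or more in every library, while UPK3A had at most 0.0850 CPM and TP63 at most 1.40 CPM. Of 6 fibroblast, 5 leukocyte and 4 endothelial markers, 4, 4 and 2 stayed below 1 CPM in every library. The others were COL1A1 (13.4 to 30.5 CPM) and PDGFRB (at most 1.47), CD14 (2.33 to 4.56), and CDH5 (1.70 to 4.92) and KDR (at most 1.29 CPM). COL1A1 thus made up most of the fibroblast sum. Summed levels of these 3 lists ran from 14.02 to 28.6, 3.19 to 4.61 and 3.46 to 5.67 CPM in controls, and among treated cultures from 15.04 to 31.4, 2.78 to 3.73 and 2.74 to 5.60 CPM. Control 1 stood apart in its mitochondrial counts, as described below, but not over all genes: its median absolute deviation from the other controls over 17413 genes was 0.386 on the log2 scale, within the 0.316 to 0.494 of the 4 controls. Values without it, or without replicate 1, are given beside many of the results that it moved.

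Mitochondrial genes held 2.32 ± 0.80% of all counts in controls, against 2.90 ± 0.46% in treated cultures (SD, n = 4). The share was 1.23%, 2.21%, 2.88% and 2.97% in controls 1 to 4 and 2.25%, 3.28%, 3.15% and 2.90% in treated 1 to 4. Control 1 was lowest, and the other 7 libraries overlapped between the groups. The difference of 0.574 percentage points did not pass an exact two-sided permutation test (p = 0.229, adjusted p = 0.571 over 10 share and ratio measures), and it was 0.211 without control 1. For 4 against 4 libraries the smallest p possible is 0.0286. A share of counts cannot tell fewer mitochondrial transcripts per cell from fewer cells that hold many of them. The 95% Wilson intervals of these shares extend at most 0.00754 percentage points to either side, so counting error is small beside the spread between cultures. Such intervals cover counting error only.

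The protein-coding genes held most of these counts, at 1.75 ± 0.63% of all counts in controls, against 2.21 ± 0.43% in treated cultures (SD, n = 4, p = 0.371 by exact permutation, 0.571 after adjustment), a difference of 0.453 percentage points that was 0.151 without control 1. The share of the rRNA genes was 0.538 ± 0.214% and 0.668 ± 0.216% (SD, n = 4, p = 0.429 by exact permutation, 0.571 after adjustment), with a difference of 0.0598 percentage points without control 1. Over these unscaled totals the rRNA share was higher in the treated library of 4 of 4 pairs. Under TMM scaling MT-RNR2, which held most rRNA counts, was lower in pair 3 (log2 change -0.10), and so was the rRNA sum. The tRNA genes held 0.0323 ± 0.0195% and 0.0221 ± 0.0039% (SD, n = 4, p = 0.429 by exact permutation, 0.571 after adjustment), lower in 3 of 4 pairs. Without control 1 that last difference went from -0.0101 to -0.00048 percentage points.

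Levels between genes are compared per length, in the deposited FPKM (counts scaled to gene length and library size). Among the protein-coding genes the subunits of cytochrome c oxidase (complex IV) led, with MT-CO2 at 4812.7 ± 2466 FPKM in controls, against 4389.8 ± 1099 in treated cultures (SD, n = 4). MT-CO3 was at 3989.7 ± 2211 and 3708 ± 1189 FPKM, and MT-CO1, the catalytic subunit, at 3091 ± 1407 and 3779.5 ± 898 FPKM. MT-CO2 was above MT-CO3 in 8 of 8 libraries, whereas MT-CO3 was above MT-CO1 in only 5 of 8.

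Below them came MT-ATP6, the proton channel subunit of the ATP synthase (complex V), at a mean over 8 libraries of 2163 FPKM, and MT-ND4 of complex I at 1599 FPKM, each above the next gene in 8 of 8 libraries. MT-CYB, the cytochrome b of complex III, was at 1099.6 FPKM, MT-ND3 at 1077 and MT-ND2 at 950.3 FPKM. These last 3 did not hold their order, since MT-CYB exceeded MT-ND3 in 4 of 8 libraries and MT-ND3 exceeded MT-ND2 in 6 of 8. MT-ND1 (796 FPKM), MT-ND4L (640.0 FPKM) and MT-ND6 (628 FPKM) also changed places, with MT-ND1 above MT-ND4L in 6 of 8 and MT-ND4L above MT-ND6 in 5 of 8 libraries. MT-ND5 (469.7 FPKM) and MT-ATP8 (106 FPKM) were lowest among the protein-coding genes.

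Genes that share an mRNA did not have equal values. MT-ND4L was at 34.8 to 45.3% of the FPKM of MT-ND4, and MT-ATP8 at 3.34 to 7.63% of that of MT-ATP6. The sources used here do not say how reads in the shared bases were counted. The log2 ratio of MT-ND4L to MT-ND4 counts was -3.59 ± 0.09 in controls, against -3.50 ± 0.18 in treated cultures (SD, n = 4, p = 0.400 by exact permutation, 0.571 after adjustment). That of MT-ATP8 to MT-ATP6 was -6.21 ± 0.31 and -5.96 ± 0.41 (SD, n = 4, p = 0.371 by exact permutation, 0.571 after adjustment). Neither ratio thus separated the groups beyond the spread between cultures.

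**Figure D1:**
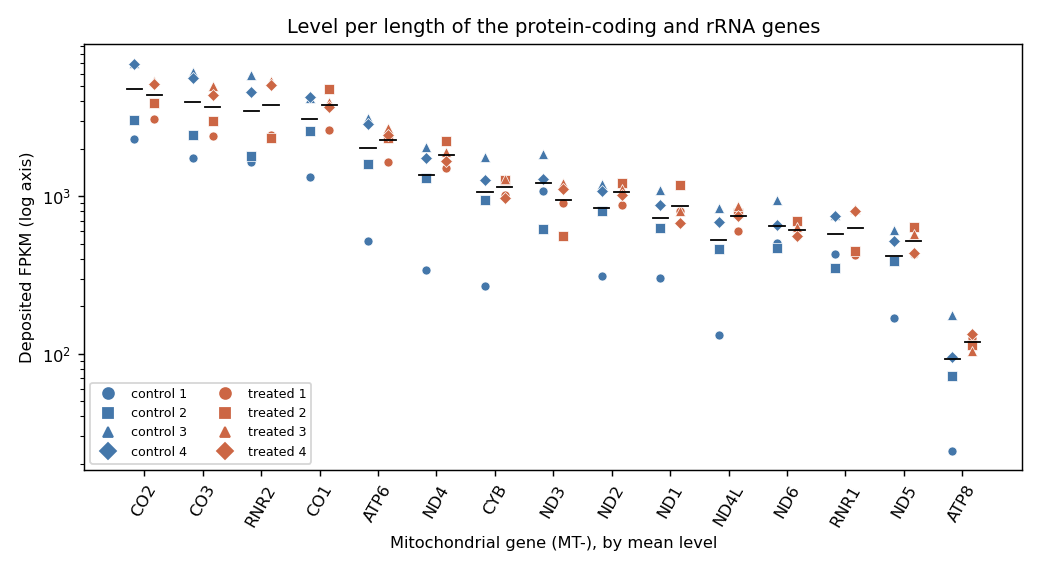
Deposited FPKM (log axis) of the 13 protein-coding and 2 rRNA genes in each library, ordered by mean level, with controls in blue, treated cultures in red, the replicate number given by the marker and the group mean by a black bar. MT-CO2 leads and MT-ATP8 is lowest, and control 1 (blue circle) lies below the other 7 libraries for 12 of the 15 genes.

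The 2 rRNAs differed in level, although MT-RNR1 precedes MT-RNR2 on the same precursor. MT-RNR2, the large rRNA, was at 3475 ± 2098 FPKM in controls, against 3811 ± 1636 in treated cultures, and MT-RNR1, the small rRNA, at 572 ± 214 and 626 ± 220 FPKM (SD, n = 4). The mean of MT-RNR2 over 8 libraries, 3643 FPKM, lay between those of MT-CO3 (3849 FPKM) and MT-CO1 (3435 FPKM). MT-RNR1 was at 12.9 to 26.1% of MT-RNR2 per length. The sources used here do not say whether rRNA was removed or polyadenylated RNA selected, and these levels are those of the libraries.

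Among tRNA genes, 4 genes of the minus strand held 97.6% of the 51264 tRNA counts over all libraries: MT-TC, MT-TN, MT-TP (tRNA for proline) and MT-TY (tRNA for tyrosine). Their mean levels were 2168, 648, 917 and 139.9 FPKM, respectively. The mean of MT-TC rests on control 1, where it was at 5733.5 FPKM and MT-ATP6 at 518 FPKM. Over the other 7 libraries MT-TC averaged 1658 FPKM and MT-ATP6 2398 FPKM, and MT-TC was the lower of the pair in 6 of 7. The other 18 tRNA genes had 1229 counts together. Of the 14 plus-strand tRNA genes 6 reached a mean of 10 counts per library, with 45.5 at most, and of the 8 minus-strand genes 4 did, with 3431 at most. MT-TC and MT-TN flank the bases where replication of one DNA strand begins, and the ratio of MT-TC to MT-TN counts stayed between 2.76 and 3.21 in the 8 libraries.

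The remaining 12 tRNA genes were too low to test. They had means of at most 7.62 counts and no count above 15 in any library, and did not pass the filter on low counts. MT-TS2, a tRNA for serine of 59 bases, had 0 counts in all 8 libraries, for which a limit of 3 counts allows up to 0.110 to 0.140 CPM of the unscaled library total. The tRNA genes are 59 to 75 bases long, and reads of uncut precursors cannot be told apart from those of tRNAs in these counts. Nor do they give the strand setting used in counting, so for the minus-strand tRNAs and MT-ND6 reads from the opposite transcript cannot be told apart from their own.

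**Figure D2:**
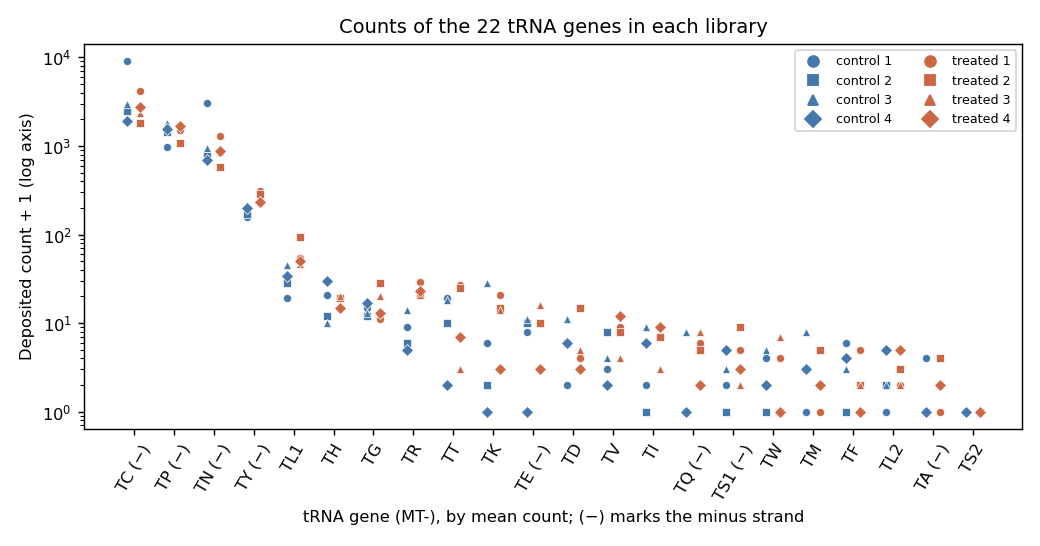
Deposited counts plus 1 (log axis) of the 22 tRNA genes in each library, ordered by mean count, with controls in blue and treated cultures in red and the replicate number given by the marker. MT-TC, MT-TP, MT-TN and MT-TY stand above the other 18 genes, and control 1 (blue circle) is highest for MT-TC and MT-TN.

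The comparison of treated with control cultures asks whether glucose oxidase changed these transcripts. Without a block for the replicate number, edgeR's quasi-likelihood test called 0 of the 25 tested mitochondrial genes at an adjusted p below 0.05. It called 0.0% of all 17413 genes, while 1284 genes and 1 mitochondrial gene, MT-TR, had an unadjusted p below 0.05. The smallest adjusted p of a mitochondrial gene was 0.658. DESeq2 without a block called 0 mitochondrial genes either, and 0.401% of all genes. The authors' deposited table lists 36 mitochondrial genes, of which 0 had an adjusted p below 0.05, with 0.426 for MT-TR as the smallest. Same-numbered libraries deviated together from their group means, so a second fit, blocked on replicate number, is given too, and "rose" and "fell" refer to it.

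With the block, MT-ND4L rose and MT-TN and MT-TC fell, 3 of the 25 tested genes. Of all genes 7.51% were called higher and 6.97% lower in this fit, so 1 and 2 of 25 are near the share over all genes. The median log2 change of the 25 was 0.26, against -0.01 over all 17413 genes. By class, 10 of 13 protein-coding genes, both rRNA genes and 6 of 10 tested tRNA genes had a positive log2 change, with medians of 0.41, 0.20 and 0.06. Without replicate 1 the median of the protein-coding genes was 0.06, with 8 of 13 positive.

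MT-ND4L was at 40.1, 143.0, 245 and 204 CPM in controls 1 to 4 and at 181, 240.3, 258 and 224 CPM in treated 1 to 4. The treated library was higher in 4 of 4 pairs, but only control 1 and control 2 lay below all treated libraries. The log2 changes of the pairs were 2.17, 0.75, 0.07 and 0.14, and the fitted change was 0.76 (SE 0.22, edgeR with block, adjusted p = 0.0224). Without replicate 1 it was 0.33 (SE 0.18, edgeR with block, adjusted p = 0.248).

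MT-TN was at 131.3, 30.5, 52.3 and 32.9 CPM in controls 1 to 4 and at 43.9, 22.9, 35.7 and 34.1 CPM in treated 1 to 4. MT-TC was at 387, 97.9, 165 and 92.2 CPM in controls and at 139.9, 73.5, 98.5 and 105 CPM in treated cultures. For both genes the treated library was lower in pairs 1, 2 and 3 and higher in pair 4, and the groups overlapped. MT-TN had a fitted log2 change of -0.63 (SE 0.18, edgeR with block, adjusted p = 0.0191) and MT-TC one of -0.61 (SE 0.19, adjusted p = 0.0263). Without replicate 1 these were -0.29 (SE 0.16, edgeR with block, adjusted p = 0.280) and -0.31 (SE 0.18, adjusted p = 0.290).

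The 3 calls thus ended when replicate 1 was left out, in a fit that called 0 mitochondrial genes and 9.5% of all genes. They also ended when a term setting replicates 1 and 2 apart from replicates 3 and 4 replaced the block (0 mitochondrial genes, 6.79% of all genes, smallest adjusted p 0.0822 in edgeR). The fitted changes were then 0.65 for MT-ND4L, -0.78 for MT-TN and -0.76 for MT-TC, with larger SEs of 0.30, 0.34 and 0.33. That division was seen in the expression values, is not in the labels, and is called the set term here. DESeq2 with the block called MT-TN and MT-TC lower and not MT-ND4L (adjusted p = 0.272), and 17.7% of all genes. Under scaling by total counts alone with the block, the median log2 change over all genes was 0.10, and MT-ND4L, MT-ND4, MT-ND2, MT-CO1 and MT-TR were higher and 0 lower, with 9.68% of all genes higher and 3.08% lower (MT-TN adjusted p = 0.0923, MT-TC adjusted p = 0.0919 in edgeR).

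With no filter on low counts and the block, 5 mitochondrial genes were higher (MT-ND4L, MT-ND4, MT-ND2, MT-ATP8 and MT-TR; 3.31% of all genes) and MT-TN and MT-TC lower (2.45%). Without replicate 3 the blocked edgeR fit called MT-ND4L, MT-ND4, MT-ND2, MT-ATP8, MT-TL1 and MT-TR higher (3.34% of all genes) and MT-TN lower (2.85%). MT-TC had no call there. Leaving out replicate 2 (5.02% of all genes higher, 3.71% lower) or replicate 4 (5.51% and 5.12%) kept the calls of MT-ND4L, MT-TN and MT-TC.

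The protein-coding genes of the plus strand differed between the pairs more than between the groups. MT-ND4, whose product forms part of the proton-pumping arm of complex I, was at 478.5, 1883, 2769.6 and 2427 CPM in controls 1 to 4 and at 2113, 3202, 2641 and 2309 CPM in treated 1 to 4. Its log2 changes were 2.14, 0.77, -0.07 and -0.07 in pairs 1 to 4, and 0.24 and 0.03 in pairs 3 and 4 over total counts (fitted change with block 0.67, SE 0.26, edgeR adjusted p = 0.0773). Without replicate 1 the fitted change was 0.22 (SE 0.22, edgeR with block, adjusted p = 0.583). Controls 3 and 4 were within the range of the treated libraries, control 2 was just below it and control 1 far below.

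MT-CYB was at 313.5, 1119, 1993 and 1444 CPM in controls 1 to 4 and at 1179.6, 1493, 1462 and 1127 CPM in treated 1 to 4. MT-ATP6 was at 361, 1143, 2106 and 1950.1 CPM in controls and at 1139, 1657, 1851 and 1682 CPM in treated cultures. Both genes were higher in the treated library of pairs 1 and 2 and lower in that of pairs 3 and 4. Over total counts MT-ATP6 was instead higher in pair 3 (log2 change 0.12). Fitted log2 changes with the block were 0.36 (SE 0.26, edgeR adjusted p = 0.389) for MT-CYB and 0.44 (SE 0.23, adjusted p = 0.215) for MT-ATP6. Without replicate 1 they were -0.12 (SE 0.21, edgeR with block, adjusted p = 0.785) and 0.06 (SE 0.21, adjusted p = 0.899).

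The same division held for most of the class. Over the 13 protein-coding genes the median log2 change was 1.40 in pair 1 and 0.60 in pair 2, with 12 of 13 higher in each, and -0.28 in pair 3 and -0.21 in pair 4, with 1 and 2 of 13 higher. The direction in pair 3 depended on the TMM scaling: over total counts the medians of pairs 1 to 4 were 1.44, 0.58, 0.03 and -0.11, with 12, 12, 7 and 4 of 13 higher. A test of the difference in change between replicates 3 and 4 and replicates 1 and 2 (edgeR) called 0 mitochondrial genes and 0.23% of all genes, with differences of -1.47 for MT-ND1 (SE 0.47, adjusted p = 0.432) and -1.24 for MT-ND4 (SE 0.65, adjusted p = 0.652). Of the 25 tested genes MT-ND1, MT-ATP8, MT-ND6, MT-TL1 and MT-TY had an unadjusted p below 0.05 in that test. So had 1462 of all 17413 genes. With no filter on low counts the test called MT-ND4, MT-CYB, MT-ND1 and MT-ATP8, and 0.319% of all genes.

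Summed by complex, the 7 genes of complex I were at 5152 ± 2309 CPM in controls, against 6368 ± 1028 CPM in treated cultures (SD, n = 4). The 3 genes of complex IV were at 11226 ± 5344 and 11909 ± 2516 CPM, and the 2 genes of complex V at 1409 ± 817 and 1607 ± 306 CPM. In each complex the treated mean was higher by less than 1 SD of the controls. Without control 1 the control means were 6165, 13263 and 1757 CPM, so that the treated mean was lower for complexes IV and V. Complex I had pair log2 changes of 1.35, 0.70, -0.17 and -0.14 and complex IV of 0.68, 0.63, -0.20 and -0.29. Over total counts pair 3 was positive for both, at 0.14 and 0.11.

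MT-CO2 and MT-CO3 had fitted log2 changes with the block of 0.00 (SE 0.20, edgeR adjusted p = 0.996) and 0.03 (SE 0.19, adjusted p = 0.932). MT-CO1, MT-ND1, MT-ND2, MT-ND5 and MT-ATP8 lay between 0.38 and 0.64, with adjusted p from 0.0931 for MT-ATP8 to 0.288 for MT-ND1. Without replicate 1 these genes lay between 0.05 for MT-ND1 and 0.22 for MT-CO1, with MT-ATP8 at 0.15 (edgeR with block). For MT-CO2 and MT-CO3 the sign was negative without the block (-0.12 and -0.09) and positive under total counts with the block (0.11 and 0.14), so no direction is given.

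MT-ND3, another membrane subunit of complex I, was the only protein-coding gene that was lower in the treated library of 4 of 4 pairs. It was at 384, 223.7, 626 and 444 CPM in controls 1 to 4 and at 317, 200.3, 417 and 389.9 CPM in treated 1 to 4, and the groups overlapped. Its log2 changes were -0.28, -0.16, -0.59 and -0.19, and the fitted change did not pass (-0.30, SE 0.16, edgeR with block, adjusted p = 0.199). MT-ND3 and MT-ND4L are separated only by MT-TR, and their fitted changes had opposite signs.

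**Figure D3:**
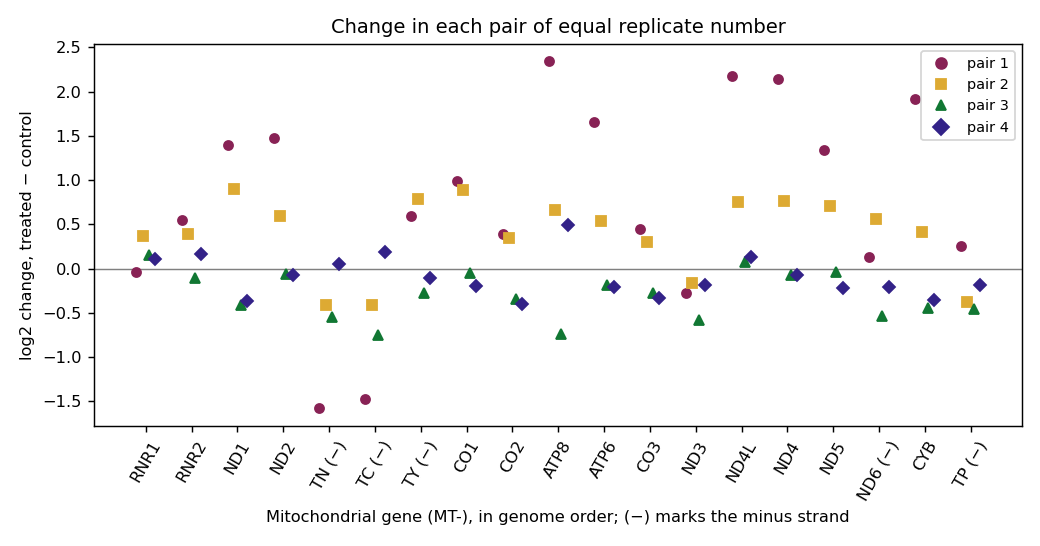
Log2 change of CPM (treated minus control, prior count 2) in each pair of equal replicate number for the 13 protein-coding, 2 rRNA and 4 abundant tRNA genes, in genome order, with minus-strand genes marked (−). Pairs 1 and 2 lie above 0 for 12 of the 13 protein-coding genes, pairs 3 and 4 mostly below it under this TMM scaling (over total counts pair 3 is above 0 for 7 of 13), and MT-TN and MT-TC in pair 1 lie at -1.58 and -1.47.

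MT-ND6, the complex I gene of the minus strand, was among the genes that differed least. It was at 272, 257, 485 and 345 CPM in controls 1 to 4 and at 298, 378, 334 and 298 CPM in treated 1 to 4. The fitted log2 change was -0.02 (SE 0.17, edgeR with block, adjusted p = 0.966), with pair values of 0.14, 0.56, -0.54 and -0.21. The coding strand of MT-ND6 holds 35.6% G and 7.05% C, against 6.28 to 16.2% G and 29.5 to 36.0% C in the 12 other protein-coding genes.

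The balance of strands and classes did not separate the groups. The log2 ratio of MT-ND6 to the other protein-coding counts was -5.67 ± 0.59 in controls, against -5.99 ± 0.20 in treated cultures (SD, n = 4, p = 0.457 by exact permutation, 0.571 after adjustment). That of rRNA to protein-coding counts was -1.70 ± 0.38 and -1.76 ± 0.55 (p = 0.857 by exact permutation, 0.857 after adjustment). That of tRNA to protein-coding counts was -5.83 ± 1.39 and -6.63 ± 0.50 (p = 0.400 by exact permutation, 0.571 after adjustment), with control 1 at -3.79 and the other 7 libraries between -7.21 and -5.99. Without control 1 the differences in these 3 log2 ratios, in the same order, went from -0.32 to -0.034, from -0.06 to 0.05 and from -0.80 to -0.12. MT-ND6 held 0.0318 ± 0.0037% of all counts in controls, against 0.0343 ± 0.0067% in treated cultures (SD, n = 4, p = 0.571 by exact permutation, 0.635 after adjustment).

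MT-RNR1 was at 419.7, 346, 712 and 713 CPM in controls 1 to 4 and at 408, 447, 790.5 and 772 CPM in treated 1 to 4. MT-RNR2 was at 2631, 2917, 9010.4 and 7119 CPM in controls and at 3863.5, 3811, 8382 and 7958 CPM in treated cultures. In both groups replicates 3 and 4 were above replicates 1 and 2. The same was so under this TMM scaling for MT-CO2, MT-CO3, MT-ATP6, MT-ND3 and MT-TP. Over total counts it did not hold for MT-ATP6, MT-ND3 and MT-TP. MT-ATP6, for example, had 41303 of 21437267 counts in treated 2 and 43688 of 27183692 in treated 4. Fitted log2 changes with the block were 0.15 for MT-RNR1 (SE 0.16, edgeR adjusted p = 0.592) and 0.25 for MT-RNR2 (SE 0.20, adjusted p = 0.430).

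Of the other tested tRNA genes, MT-TP had a fitted log2 change of -0.19 (SE 0.15, edgeR with block, adjusted p = 0.406) and MT-TY of 0.26 (SE 0.19, adjusted p = 0.393). These minus-strand genes did not move with MT-TN and MT-TC in pair 1, where their log2 changes were 0.26 and 0.60. MT-TL1, a tRNA for leucine at 18 to 93 counts per library, had a change of 0.72 (SE 0.33, edgeR with block, adjusted p = 0.140). MT-TK, MT-TG, MT-TH and MT-TT, the tRNAs for lysine, glycine, histidine and threonine, had 0 to 29 counts per library and adjusted p from 0.494 to 0.964.

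MT-TR was the only mitochondrial gene whose treated libraries all lay above all controls, a placement that 2.42% of all genes had (5.02% in either direction). It had 8, 5, 13 and 4 counts in controls 1 to 4 and 28, 20, 20 and 22 counts in treated 1 to 4. The log2 change was 1.35 (SE 0.47, edgeR with block, adjusted p = 0.0519) and 1.34 without replicate 1 (SE 0.58, adjusted p = 0.148).

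Control 1 was low for most protein-coding genes. Of the 13 protein-coding genes 11 had their lowest CPM of all 8 libraries there. MT-ND4, MT-ND4L, MT-CYB, MT-ATP6 and MT-ATP8 were at 20.3, 20.3, 20.6, 20.8 and 21.6% of the mean of controls 2 to 4. MT-CO2 and MT-CO3 were at 42.1 and 38.0%, MT-ND6 at 75.0% and MT-ND3 at 89.1%.

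The rRNAs MT-RNR1 and MT-RNR2 were at 71.1 and 41.4% there, while MT-TN and MT-TC were at 341 and 327%. That mean joins control 2 with controls 3 and 4, which were higher for both rRNAs, MT-CO2 and MT-CO3. Against control 2 alone, control 1 was higher for MT-RNR1 (419.7 against 346 CPM). It was nearer to control 2 for MT-RNR2 (2631 against 2917), MT-CO2 (1627 against 2185) and MT-CO3 (1411 against 1998 CPM). MT-TN and MT-TC together had 65.6 counts per 1000 protein-coding mitochondrial counts in control 1, against 4.05 to 11.5 elsewhere. The low mRNAs and the high pair of tRNAs were thus in the same library. The deviation of the 13 protein-coding genes in control 1 had a median of -1.53 on the log2 scale, a value at or below which 0.959% of all genes lay. Within the 13 genes and 2 rRNAs, the Spearman correlation of the deviation with gene length was -0.08 and with start position -0.32, as a description of 15 genes of 1 library.

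**Figure D4:**
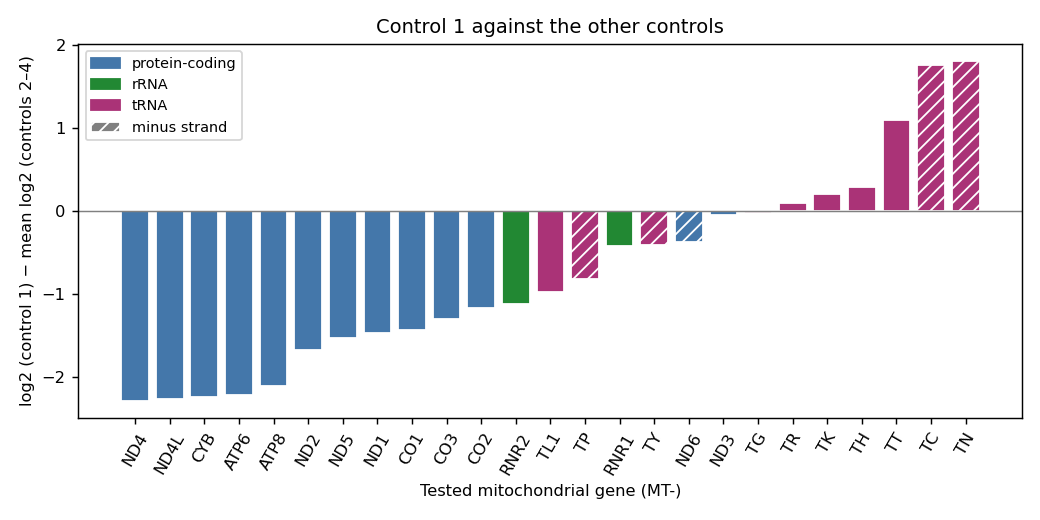
Log2 CPM of control 1 minus the mean log2 CPM of controls 2 to 4 for the 25 tested mitochondrial genes, coloured by class, with hatching for the minus strand. The protein-coding genes run from -2.28 for MT-ND4 to -0.04 for MT-ND3, and MT-TC and MT-TN stand at 1.76 and 1.81.

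The coefficient of variation of CPM was larger in controls (30.8 to 67.1%) than in treated cultures (11.1 to 30.9%) for 13 of 13 protein-coding genes. Over controls 2 to 4 it was 16.6 to 46.7%, larger than in treated cultures for 10 of 13, with MT-ND1, MT-CO1 and MT-ND5 the other way. For MT-ND3 and MT-ND6 it was larger without control 1 (46.7 and 31.8%) than with it (39.6 and 30.8%). Without control 1 and without a block, edgeR gave log2 changes of 0.21 for MT-ND4L (SE 0.26, adjusted p = 0.768), -0.15 for MT-TN (SE 0.28, adjusted p = 0.847) and -0.16 for MT-TC (SE 0.30, adjusted p = 0.847). In pairs 1 to 3 the shortest 10% of all genes had median log2 changes of -0.28, -0.32 and -0.22 and the longest 10% had 0.18, 0.29 and 0.28. In pair 4 the values were -0.05 and -0.01. The part of gene length in the values of tRNAs and short mRNAs was not tested.

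Nuclear copies of mitochondrial genes share sequence with them, so reads may be split. The table holds 407 such copies, of which 288 had no count and 4 reached a mean of 10 counts. MTATP6P1, MTND2P28 and MTCO1P12, which lie close together on chromosome 1, had the most, at 1.72 to 4.48% of the counts of MT-ATP6, 1.10 to 2.91% of those of MT-ND2 and 0.106 to 0.158% of those of MT-CO1. All copies together came to 0.217 to 0.315% of the mitochondrial counts, and the values of genes with such copies are uncertain where reads were shared.

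Of 48 nuclear genes that transcribe, replicate, process or stabilise mitochondrial RNA or DNA, or regulate these genes, 47 could be tested, and PPARGC1A could not. With the block 4 rose, 5 fell and 38 did not pass (edgeR), against 7.51% and 6.97% over all genes. The median log2 change was -0.04, against -0.01 over all genes. Without the block 0 passed in edgeR (3 with an unadjusted p below 0.05) and 0 in DESeq2, with the set term only PTCD2, and without replicate 1 TWNK, FASTKD1 and MTERF1.

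TWNK, the helicase of mitochondrial DNA replication, was at 16.8 ± 7.12 CPM in controls, against 25.2 ± 11.1 CPM in treated cultures (SD, n = 4) and rose by a log2 change of 0.59 (SE 0.15, edgeR with block, adjusted p = 0.00778). PNPT1, an RNA-degrading nuclease of mitochondria, rose from 143.9 ± 10.3 to 203 ± 23.4 CPM (log2 change 0.49, edgeR with block, adjusted p = 0.0222). In PNPT1 and PTCD2, a protein of mitochondrial RNA maturation, all treated libraries lay above all controls, a placement that 2.42% of all genes had. PTCD2 rose from 27.9 ± 2.20 to 39.1 ± 3.99 CPM (log2 change 0.49, edgeR with block, adjusted p = 0.0184) and PPARGC1B, a transcriptional coactivator, by a log2 change of 0.63.

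FASTKD1, of a family of mitochondrial RNA-binding proteins, went from 92.8 ± 51.4 to 61.8 ± 26.7 CPM and fell by 0.52 on the log2 scale (edgeR with block, adjusted p = 0.0169). MTERF1, which binds mitochondrial DNA and ends transcription, fell by 0.45 on the log2 scale (edgeR with block, adjusted p = 0.0272). SLIRP, the partner of LRPPRC in keeping mitochondrial mRNAs stable, and HSD17B10, a subunit of the nuclease that cuts tRNA 5' ends, both had -0.48 (edgeR with block, adjusted p = 0.0338 and 0.0344). PRIMPOL, a primase-polymerase, also fell. Under total counts with the block these 5 genes did not pass, and the 4 that rose did.

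The factors named by rule whatever their result did not pass in edgeR with the block. TFAM, which packages mitochondrial DNA and starts its transcription, was at a log2 change of -0.31 (adjusted p = 0.155), and POLRMT, the polymerase, one of 0.09 (adjusted p = 0.747). LRPPRC had -0.02 (edgeR adjusted p = 0.955) and POLG, the DNA polymerase, 0.19 (adjusted p = 0.387).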

How the data were processed

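The build GRCh38.p13 is named in the submitters' processing notes, as are the tools HISAT2 2.0.5, featureCounts 1.5.0-p3 and DESeq2 1.20.0. The strand setting and the handling of multiply mapped reads are not given in the sources used here. The deposited counts are whole reads per gene, not normalised. The deposited FPKM is per gene length (in bases, in the same tables) and divided by the authors' size factors. The authors' deposited table of the comparison holds size-factor-normalised signal per library and as group means, a log2 fold change, a p-value and an adjusted p-value, from which values are quoted as the authors' own. No per-sample column was left unused.

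The count test was edgeR's quasi-likelihood test (version 4.0.16, R 4.3.3, TMM, filterByExpr, Benjamini-Hochberg over all genes), with group as the only term. A replicate block, other scalings, no filter, each replicate left out and DESeq2 1.42.0 were the alternatives. CPM uses TMM-scaled totals, except unscaled totals for the cell type markers and the limit for MT-TS2. Pair changes use log2 CPM with a prior count of 2. Shares and ratios (0.5 added) were compared by exact permutation with Python 3.11.15. The fits were tested on simulated data. The members, gene lists and tests were chosen with earlier results of these data known. All protein-coding and rRNA genes are named, tRNA genes from a mean of 10 counts or a call, 4 preset factors with up to 4 called in each direction, and the 3 nuclear copies of highest count. PRIMPOL and the cell type markers were named after their values were seen.

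Deviations of same-numbered libraries from their group means correlated at 0.532, 0.678, 0.590 and 0.503 across 17413 genes, all over the minimum of 0.1, so the numbers were taken to pair the samples. Inside replicates 1 and 2 or 3 and 4, differently numbered libraries correlated at 0.443 to 0.652. These values are also over the minimum, which therefore cannot tell pairing by number from the 2 sets. Control 3 correlated more with treated 4 (0.652) than with treated 3 (0.590). Where libraries of a group are not from separate cultures, p-values measure only the spread between these samples, which may be technical.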

Additional observations from a re-analysis of the deposited data

Results flagged for a closer look

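In each group of 4 libraries the gap of the highest or lowest library to its neighbour was divided by the range of the group, and a value above Dixon's 95% limit for 4 libraries marks 1 library as far from the others. Chance marks about 1 in 20 groups, and 3 of 70 groups were marked. The share of counts in mitochondrial tRNA genes gave 0.833 in controls, with control 1 high at 0.0612% against 0.0190 to 0.0260% in the other controls. The level of MT-TL1 gave 0.941 in treated cultures, with treated 2 high at 3.73 CPM (93 counts). The level of MT-TK gave 0.855 in controls, with control 3 high at 1.49 CPM (27 counts).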

How the results depend on the processing

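Without a block, the count of mitochondrial genes called stayed at 0 in edgeR under DESeq2 size factors, total counts, no filter and scaling to mitochondrial protein-coding counts, without any single library, and in DESeq2. With the replicate block it was 1 higher and 2 lower, and the same with DESeq2 size factors in edgeR. It was 5 and 2 with no filter, 5 and 0 with total counts, 0 and 2 in DESeq2, and 0 and 0 when scaled to mitochondrial protein-coding counts. Without replicate 1, 2, 3 and 4 it was 0, 1, 6 and 1 higher and 0, 2, 1 and 2 lower. The difference of change between replicates 3 and 4 and replicates 1 and 2 was called for 4 genes with no filter. The nuclear factors called were 9 with the block (7.51% of all genes higher, 6.97% lower) and 11 in DESeq2 with block (17.7% of all genes). With DESeq2 size factors and block they were 9, with 1239 of all 17413 genes higher and 1329 lower. They were 5 with no filter and block (3.31% and 2.45%) and 4 with total counts and block (9.68% and 3.08%). The set term left 1 called (6.79% of all genes). With the block and without replicate 1, 2, 3 and 4 they were 3, 3, 1 and 6. Without replicate 1, 9.5% of all genes were called. Without replicates 2, 3 and 4, 5.02%, 3.34% and 5.51% were higher and 3.71%, 2.85% and 5.12% lower. The replicate block changed no other call. The set term without control 1, the difference of change without control 1, the values without control 1 alone, and the pair changes over total counts were chosen after seeing the data.

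Some log2 changes without a call had the other sign. With no filter and block, total counts, and total counts with block, MT-CO2 was at 0.023, 0.048 and 0.11, MT-ND6 at 0.011, 0.11 and 0.096, LRPPRC at 0.0076, 0.10 and 0.093, and MT-CO3 at 0.059, 0.078 and 0.14. MT-CO3 was at 0.034 with the block, 0.020 with DESeq2 size factors and block, 0.029 in DESeq2 with block and 0.029 with the set term. Scaled to mitochondrial protein-coding counts, without and with block, MT-RNR1 was at -0.19 and -0.14, MT-RNR2 at -0.0042 and -0.047, MT-TG at -0.32 and -0.25, MT-TT at -0.44 and -0.35 (-0.13 with the set term), and MT-TY at -0.092 and -0.039. Over TMM-scaled totals the difference in the MT-ND6 share was -0.00127 percentage points.

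With the block and without replicates 3 and 4 in turn, MT-CO2 was at 0.11 and 0.13, MT-CO3 at 0.14 and 0.15 and MT-ND6 at 0.16 and 0.050. Without replicates 2 and 3 MT-TG was at -0.40 and -0.029, and without replicates 2 and 4 MT-TT at -0.51 and -0.19. MT-CYB was at -0.12 without replicate 1, LRPPRC at 0.019 without replicate 3, and MT-TH at 0.26 and POLRMT at -0.073 without replicate 4. With no block and 1 library left out, log2 changes ran from -0.12 to 0.46 for MT-ATP6, -0.33 to 0.10 for MT-CO2, -0.31 to 0.18 for MT-CO3, -0.19 to 0.46 for MT-CYB, -0.16 to 0.17 for MT-ND6, -0.018 to 0.30 for MT-RNR1, -0.060 to 0.51 for MT-RNR2, -0.20 to 0.34 for MT-TG, -0.47 to 0.15 for MT-TH, -0.26 to 2.37 for MT-TK, -0.39 to 0.013 for MT-TP, -0.35 to 0.45 for MT-TT, -0.18 to 0.15 for LRPPRC and -0.027 to 0.26 for POLRMT. With replicates left out the difference in the log2 ratio of rRNA to protein-coding counts ran from -0.22 to 0.094 and in the MT-ND6 share from -0.0013 to 0.0051 percentage points. The cause of these changes was not tested. Low counts limit what can be said of the 12 tRNA genes with at most 15 counts per library. The same holds for MT-TK, MT-TT, MT-TR, MT-TG and MT-TH, which had 0 to 29 counts and no adjusted p in DESeq2 with block.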
